A study of Mus musculus with 8 samples.

Results

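The nuclear genes of the mitochondrial respiratory chain and ATP synthase were followed through early B lymphopoiesis and in Erg-deficient pre-proB cells. Members were the protein-coding genes of the count table whose symbol starts with Nduf, Sdh followed by a, b, c or d, Uqcr, Cox4, Cox5, Cox6, Cox7, Cox8 or Atp5, with Cox6a2 left out. This rule used no measured value and gave 98 of the 27179 genes in the table. They comprised 7 core subunits, 31 accessory subunits and 8 assembly factors of complex I, 8 genes of complex II including its assembly factors, 8 of complex III, 19 of complex IV and 17 of ATP synthase. Ndufa4 and Ndufa4l2, which carry complex I names, were placed with complex IV.

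RNA was sequenced from sorted bone marrow cells of mice aged 7 to 10 weeks. Pre-proB, proB and preB cells, the successive stages before IgM is expressed, came from Rag1Cre +/+;Erg fl/fl mice, which have floxed Erg alleles and no Cre. Pre-proB cells were also sorted from animals of the genotype Rag1Cre T/+;Erg Δ/Δ. There, Cre expressed from the Rag1 locus deletes Erg in lymphoid progenitors, so that both Cre and Erg distinguish these mice, called Erg-deficient here, from the controls. Each of the 4 groups held 2 libraries, sorted independently from 2 mice per genotype, and which mouse gave which library is not stated. By CD43 and CD24, the gates were CD43+ CD24- for pre-proB, CD43+ CD24+ for proB and CD43- CD24+ for preB cells. The gates also left out cells with NK1.1 or CD11c on their surface, which mark NK and dendritic cells.

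The respiratory chain sits in the inner mitochondrial membrane. Complexes I and II pass electrons from NADH and succinate to ubiquinone, complex III passes them on to cytochrome c, and complex IV reduces oxygen. Complexes I, III and IV pump protons, and ATP synthase makes ATP as the protons flow back. Most subunits are nuclear genes, a few core subunits are encoded by mitochondrial DNA, and the nuclear genes are known targets of the factors NRF1, GABP (an ETS factor that binds the core of CCGGAAG) and YY1.

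Promoter sequences, taken from RefSeq on GRCm38.p6, are shown because motifs of these factors were more frequent among the members than among all promoters. The rule used only symbols. The table held 86 promoters for 81 of the 98 members, each with 250 bases before the start and 50 after it. On either strand, the NRF1 motif (GCGCA, any base, GCGC) was found in 22 of the 86 (25.6%), against 6.59% of 20439 promoters of protein-coding genes in the count table. The ETS motif CCGGAAG was found in 22 (25.6%, against 11.8%) and the YY1 motif AAGATGGC in 11 (12.8%, against 3.11%). The Sp1 motif GGGCGG was found in 46.5% of member promoters and 47.5% of all, and TATAAA in 11.6% and 12.4%. The promoters of all protein-coding genes include genes too low to be tested in these cells, and shares among tested genes alone were not counted. At least 1 of the NRF1, ETS and YY1 motifs was in 47 of the 86 promoters. The 6 members shown were chosen among those with a match, so they do not stand for the promoters without one. The 180 bases before the start of each follow, 5′ to 3′ on the gene's strand, with matches to these 3 motifs on either strand in capitals:
Ndufs6 (chr13:73328483-73328662, minus strand): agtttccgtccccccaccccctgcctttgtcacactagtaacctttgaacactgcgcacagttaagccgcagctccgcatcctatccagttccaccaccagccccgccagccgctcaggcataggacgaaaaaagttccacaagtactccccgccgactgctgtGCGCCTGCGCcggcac
Ndufaf4 (chr4:24897903-24898082, plus strand): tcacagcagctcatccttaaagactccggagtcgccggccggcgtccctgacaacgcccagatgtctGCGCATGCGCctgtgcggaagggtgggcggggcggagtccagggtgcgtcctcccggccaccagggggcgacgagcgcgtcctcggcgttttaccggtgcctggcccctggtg
Sdha (chr13:74350241-74350420, minus strand): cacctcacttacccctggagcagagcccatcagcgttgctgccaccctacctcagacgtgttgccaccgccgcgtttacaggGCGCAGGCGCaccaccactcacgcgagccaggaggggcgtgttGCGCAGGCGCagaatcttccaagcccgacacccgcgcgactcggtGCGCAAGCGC
Cox6a1 (chr5:115348959-115349138, minus strand): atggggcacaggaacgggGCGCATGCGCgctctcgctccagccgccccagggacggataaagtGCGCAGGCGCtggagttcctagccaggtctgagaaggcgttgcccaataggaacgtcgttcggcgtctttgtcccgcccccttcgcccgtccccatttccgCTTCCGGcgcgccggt
Atp5g2 (chr15:102671048-102671227, minus strand): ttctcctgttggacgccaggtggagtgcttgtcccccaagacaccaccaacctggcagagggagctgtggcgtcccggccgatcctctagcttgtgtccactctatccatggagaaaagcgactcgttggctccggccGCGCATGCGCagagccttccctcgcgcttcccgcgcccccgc
Atp5j (chr16:84834977-84835156, minus strand): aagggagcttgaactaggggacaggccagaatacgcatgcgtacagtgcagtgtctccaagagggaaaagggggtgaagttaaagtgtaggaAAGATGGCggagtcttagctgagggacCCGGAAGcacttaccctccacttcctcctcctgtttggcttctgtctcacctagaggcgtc
Ndufs6 holds 1 NRF1 match, read on the opposite strand, 16 to 7 bases before the start. Its promoter also has 1 YY1 match, which does not lie within the bases shown. Ndufaf4 holds 1 NRF1 match at 113 to 104 bases. In Sdha there are 3 NRF1 matches, the nearest ending at the base before the start. In Cox6a1, 2 NRF1 matches stand upstream of 1 ETS match on the opposite strand at 16 to 10 bases. Atp5g2 has 1 NRF1 match at 42 to 33 bases. Atp5j is shown at the 1 of its listed starts with a match, with YY1 at 88 to 81 and ETS at 61 to 55 bases. A match is a description of the letters and not a measured binding site.

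Counts summed to between 15565381 and 18457632 per library, so that 3 counts corresponded to 0.154 to 0.194 CPM, the read count scaled to library size with TMM factors. The deleted gene, Erg, measured 69.1 and 25.3 CPM in control pre-proB libraries, against 2.50 and 2.58 CPM in Erg-deficient ones. The 12 B-lineage markers checked the stages. Of these, 11 were higher and 1 (Ptprc) was lower in proB than in pre-proB cells, and 8 were lower in Erg-deficient pre-proB cells than in their controls. The Erg fl/fl pre-proB libraries differed from each other in B-lineage markers, which summed to 3539 CPM in replicate 1 and 2730 in replicate 2. The same sum was 2376 and 2425 CPM in Erg-deficient libraries, although the median log2 fold change of the markers there was -4.85. Markers that were not lower there thus make up much of the sum. It can understate how far the other markers differed between the control replicates. Pre-proB libraries of both genotypes held 8 plasmacytoid dendritic-like markers at a summed 12670 to 15400 CPM, against 610 to 976 CPM in proB and preB libraries. One of these markers is Cox6a2, a muscle form of a complex IV subunit outside the rule, at 288 and 345 CPM in control pre-proB and 5.71 to 7.32 CPM in proB and preB cells.

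Of the 98 members, 89 reached 0.5 CPM in 2 or more libraries and were tested in both fits. The 9 below it were Ndufb4b, Ndufb4c, Sdhd, Uqcr11, Cox4i2, Cox7b2, Cox8b, Cox8c and Ndufa4l2. Cox7b2 and Cox8c, testis forms, had no count in any library, and Cox8b, a muscle form, had 2 counts over the 8 libraries. Cox4i2, the hypoxia-associated form of subunit IV, had 0 counts in the 4 pre-proB libraries, 1 in each proB library and 5 and 6 in the preB libraries. Sdhd, the membrane anchor of complex II, had 1 to 11 counts per library, Uqcr11 of complex III had 1 count in all, and Cox7a2 of complex IV, which passed the filter, had 10 to 23. These 3 genes belong to complexes that every respiring cell uses. None of their 100-base windows was shared with another transcript of the annotation. That search saw only exact matches among annotated transcripts, so it cannot speak to near-identical or unannotated copies. Why the table lists these 3 genes so low was not tested. No direction is drawn from them.

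**Figure D1:**
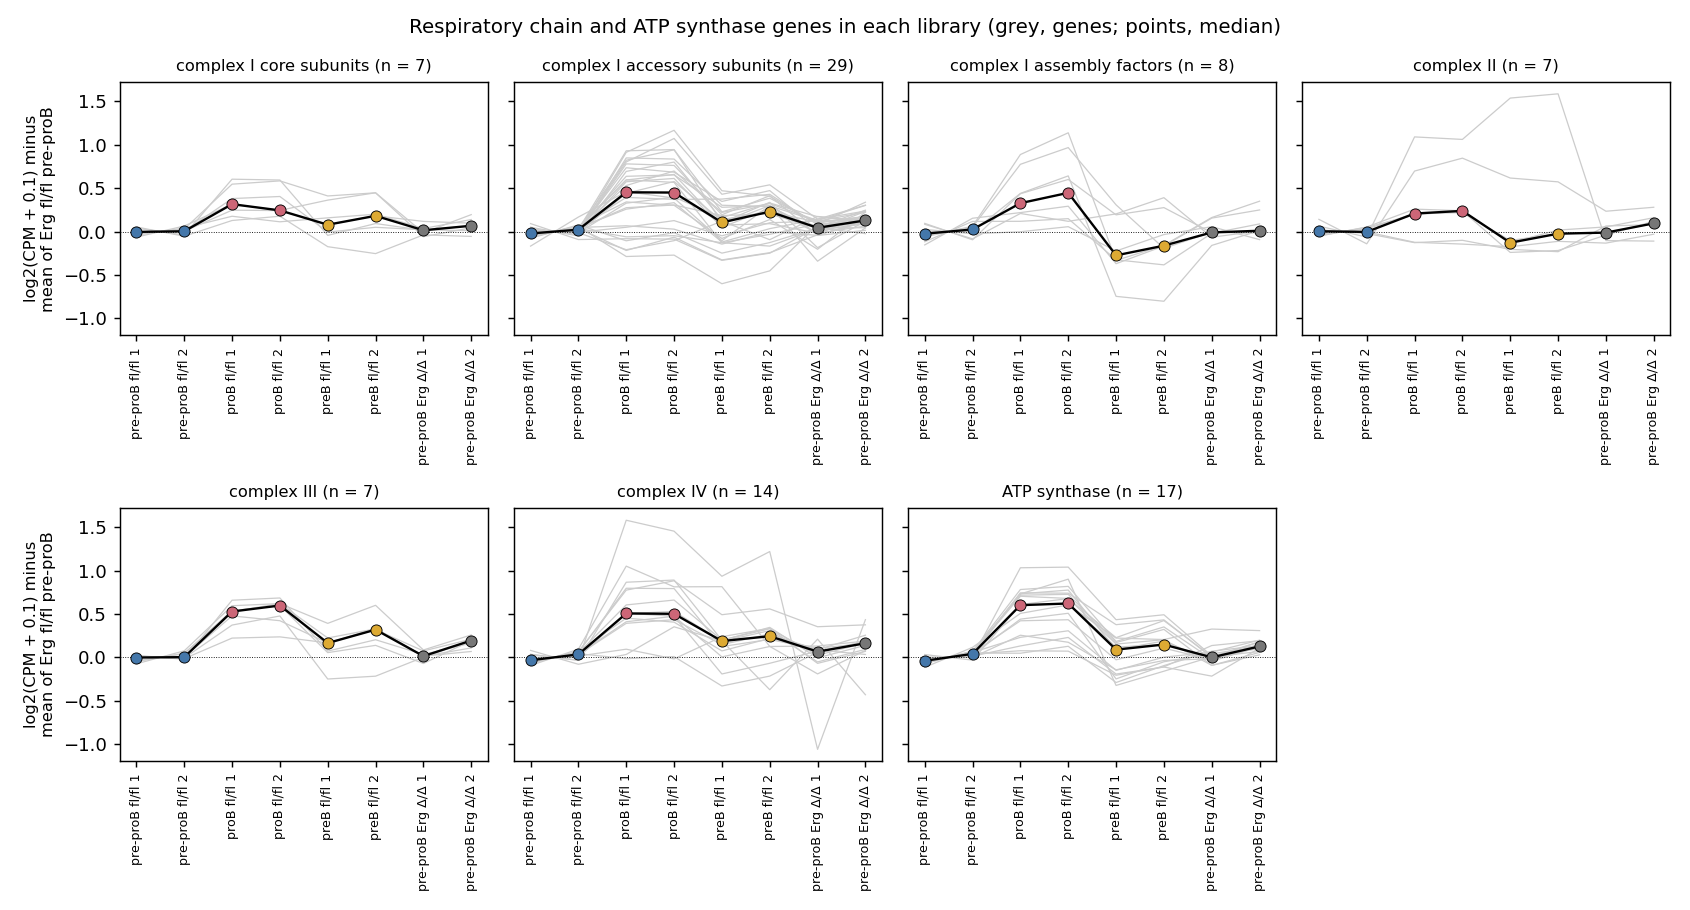
Each grey line is a gene that passed the filter, drawn as log2(CPM + 0.1) minus its mean in the control pre-proB libraries, in each of the 8 libraries (x axis) and by complex; points are medians. The medians of both proB libraries stand above those of the other 6 libraries in every group of genes, and the Erg-deficient libraries lie near the control pre-proB libraries.

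Summed over the 98 members, the control pre-proB libraries held 6475 and 6738 CPM, the proB libraries 9225 and 9371, the preB libraries 7102 and 7601 and the Erg-deficient libraries 6706 and 7254. The proB libraries were the highest and did not overlap with the others. The ratio of the proB to the pre-proB mean was 1.41, and that of preB to proB was 0.791. ATP synthase genes had the highest ratio of proB to pre-proB, 1.53, and complex II genes the lowest, 1.25. In bulk RNA, fewer cells of a type and less RNA per cell cannot be told apart.

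**Figure D2:**
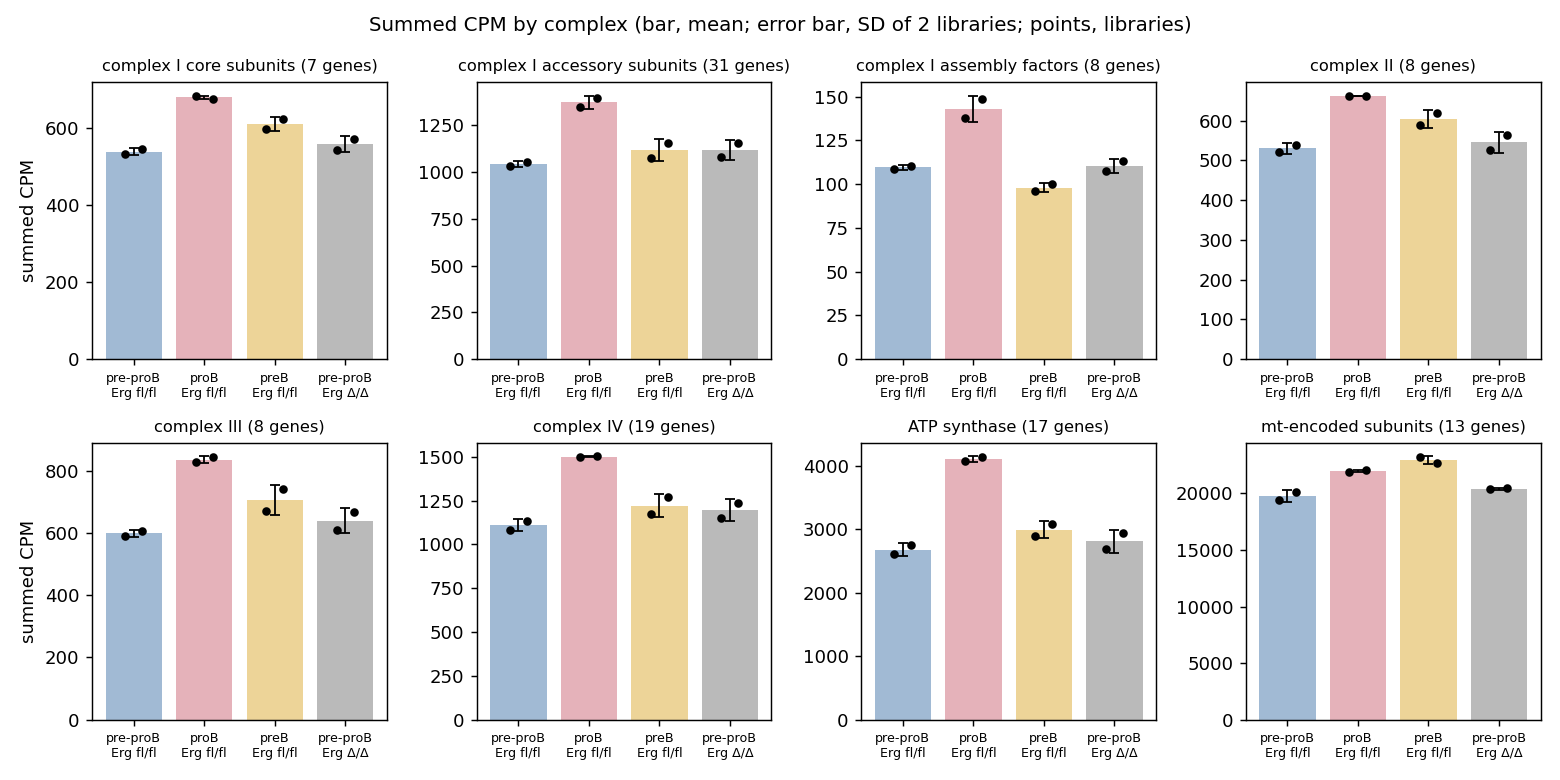
Bars give the mean summed CPM (y axis, from 0) of each group of genes in the 4 cell groups, error bars the SD of 2 libraries and points the libraries. ATP synthase genes rise from a mean of 2678 CPM in Erg fl/fl pre-proB to 4104 in proB cells and stand at 2994 in preB cells, while the sum of the mitochondrial-encoded subunits is highest in preB cells, at 22950.

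Per kilobase of exon in Erg fl/fl pre-proB cells, the most abundant members were Atp5b, the catalytic beta subunit of ATP synthase, at 361 ± 14.3 CPM per kb (SD, n = 2) and Cox4i1 at 261 ± 10.8. Cox8a at 226 ± 15.3 and Atp5a1, the alpha subunit, at 222 ± 8.68 CPM per kb came next and did not differ beyond their spread. Uqcrh, a hinge protein of complex III, was at 204 ± 2.99 and Atp5e, the epsilon subunit, at 202 ± 9.76, which did not differ beyond their spread either. In proB cells the level of Atp5b was 609 ± 12.8 and that of Atp5a1 370 ± 0.852 CPM per kb, while Cox4i1 stayed at 260 ± 3.05.

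The first comparison asks how the members change from pre-proB to proB cells of Erg fl/fl mice. A gene is called where the adjusted p of edgeR's quasi-likelihood test was below 0.05. Of the 89 members tested, 69 were higher and 1 was lower in proB cells, where 36.2% of all 13650 genes tested were called higher and 36.8% lower (73.0% in either direction). The median log2 fold change of the members was 0.51, a 1.42-fold difference, against 0.00 for all genes tested. All 7 complex I core subunits tested rose, as did all 7 complex III genes, 15 of 17 ATP synthase genes, 11 of 14 complex IV genes, 20 of 29 complex I accessory subunits, 5 of 7 complex II genes and 4 of 8 complex I assembly factors. Median log2 fold changes ran from 0.25 in complex II and 0.31 in the complex I core to 0.60 in complex III and 0.65 in ATP synthase.

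Among core subunits of complex I, Ndufs1, the large iron-sulfur subunit, was at 78.4 and 81.6 CPM in the pre-proB libraries and at 117 and 120 CPM in the proB libraries. Its log2 fold change was 0.60 (SE 0.0582, adjusted p = 2e-05). Ndufv2, a flavoprotein-module subunit, went from 70.1 and 66.4 to 104 and 103 CPM, by 0.63 on the log2 scale (SE 0.0665, adjusted p = 3.29e-05). Both genes were higher in each proB library than in either pre-proB library. Of the accessory subunits, Ndufs6 was at 23.2 and 22.1 CPM in the pre-proB libraries and at 40.9 and 40.5 CPM in the proB libraries (log2 fold change 0.88, SE 0.0744, adjusted p = 8.44e-06). Ndufa9 rose by 0.68 (SE 0.0569, adjusted p = 7.81e-06). The exception was Ndufv3, an accessory subunit of the flavoprotein module, at 44.3 and 48.0 CPM in the pre-proB libraries and at 37.7 and 38.2 CPM in the proB libraries. It was lower by a log2 fold change of -0.25 (SE 0.0817, adjusted p = 0.0231), and this call was lost with total counts for scaling (0 members lower) and without pre-proB replicate 2 or proB replicate 1.

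Assembly factors of complex I, which help build the complex and are not part of it, were low in level. Ndufaf4 rose from 24.9 and 24.8 to 33.8 and 38.8 CPM (log2 fold change 0.58, SE 0.0944, adjusted p = 0.000523). Ndufaf2 went from 5.07 and 5.53 to 9.89 and 11.8 CPM (1.06, SE 0.168, adjusted p = 0.000441), but 65.6% of its exon length overlaps another gene, B230220B15Rik, so reads of these genes may be shared. In complex II, the catalytic subunit Sdha was at 266 and 278 CPM in the pre-proB libraries and at 314 and 316 CPM in the proB libraries. Its log2 fold change was 0.25 (SE 0.0650, adjusted p = 0.00802), beside 0.28 for the iron-sulfur subunit Sdhb and 0.25 for the membrane anchor Sdhc. The call of each was lost without pre-proB replicate 1, and those of Sdha and Sdhc also without proB replicate 2. Sdhaf2, which helps attach the flavin cofactor to Sdha, was at 54.1 and 49.5 CPM in the pre-proB libraries and at 110 and 108 CPM in the proB libraries. It had the lowest p in this complex, with a log2 fold change of 1.11 (SE 0.0639, adjusted p = 7.61e-07). Sdhaf3, another assembly factor, was at 3.27 and 2.67 CPM in the pre-proB libraries and at 4.86 and 5.40 CPM in the proB libraries (0.82, SE 0.198, adjusted p = 0.00512).

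Within complex III, Uqcrq, a small subunit, was at 35.0 and 34.0 CPM in the pre-proB libraries and at 54.5 and 55.5 CPM in the proB libraries (log2 fold change 0.71, SE 0.0735, adjusted p = 3.07e-05). The core subunit Uqcrc1 rose by 0.61 (SE 0.0709, adjusted p = 6.47e-05). In complex IV, Cox5a was at 83.0 and 90.0 CPM in the pre-proB libraries and at 150.1 and 149.7 CPM in the proB libraries, with a log2 fold change of 0.83 (SE 0.0654, adjusted p = 5.41e-06). Ndufa4 was at 82.9 and 79.0 CPM in the pre-proB libraries and at 147.5 and 150.1 CPM in the proB libraries (0.91, SE 0.0682, adjusted p = 3.84e-06). Cox4i1, the ubiquitous form of subunit IV, was not called, at 194 and 205 CPM in the pre-proB libraries and at 197 and 201 CPM in the proB libraries. The 95% interval of its log2 fold change ran from -0.12 to 0.18, which excludes a difference as large as that of Cox5a. The complex IV members thus differed among themselves in this step.

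Among the members, forms of complex IV subunits that are known from particular tissues were low. The muscle form Cox6a2, outside the rule, was not low in control pre-proB cells, as given above. Cox7a1, the heart and skeletal muscle form, was at 0.513 and 0.486 CPM in the pre-proB libraries and at 1.69 and 1.54 CPM in the proB libraries, 8 counts in each pre-proB and 31 and 30 counts in the proB libraries. Its log2 fold change of 1.71 (SE 0.335, adjusted p = 0.00158) was the largest of the members. Cox6b2, the testis form, was at 3.08 and 3.53 CPM in the pre-proB libraries and at 6.94 and 5.86 CPM in the proB libraries (0.98, SE 0.254, adjusted p = 0.00724). Its level per kilobase in proB cells was 8.64 ± 1.02, against 195 ± 2.58 CPM per kb for the ubiquitous form Cox6b1. Cox6a1, Cox6b1 and Cox8a, the common forms, rose by 0.67, 0.55 and 0.46. Cox7a2l was at 172 and 175 CPM in the pre-proB libraries and at 185 and 171 CPM in the proB libraries. It was not called (adjusted p = 0.349). Its known role in supercomplexes of complexes III and IV was not measured here.

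ATP synthase is rotated by a ring of identical c subunits, which Atp5g1, Atp5g2 and Atp5g3 encode with different targeting sequences. Atp5g3 was at 132.0 and 132.1 CPM in the pre-proB libraries and at 270.2 and 272 CPM in the proB libraries, a log2 fold change of 1.07 (SE 0.0590, adjusted p = 5.96e-07). Atp5g1 went from 44.5 and 46.8 to 75.8 and 85.3 CPM (0.85, SE 0.0868, adjusted p = 2.68e-05). The rise of Atp5g2 was smaller, from 66.0 and 68.8 to 91.4 and 95.8 CPM (0.51, SE 0.0779, adjusted p = 0.000366). All 3 genes were higher in every proB than in every pre-proB library. Atp5j, a stalk subunit, rose by 0.72 (SE 0.0619, adjusted p = 8.96e-06), with 12.7% of its exon length overlapping Gabpa. Atp5c1 and Atp5e, of the central stalk, were the ATP synthase genes not called, with log2 fold changes of 0.11 and 0.12.

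**Figure D3:**
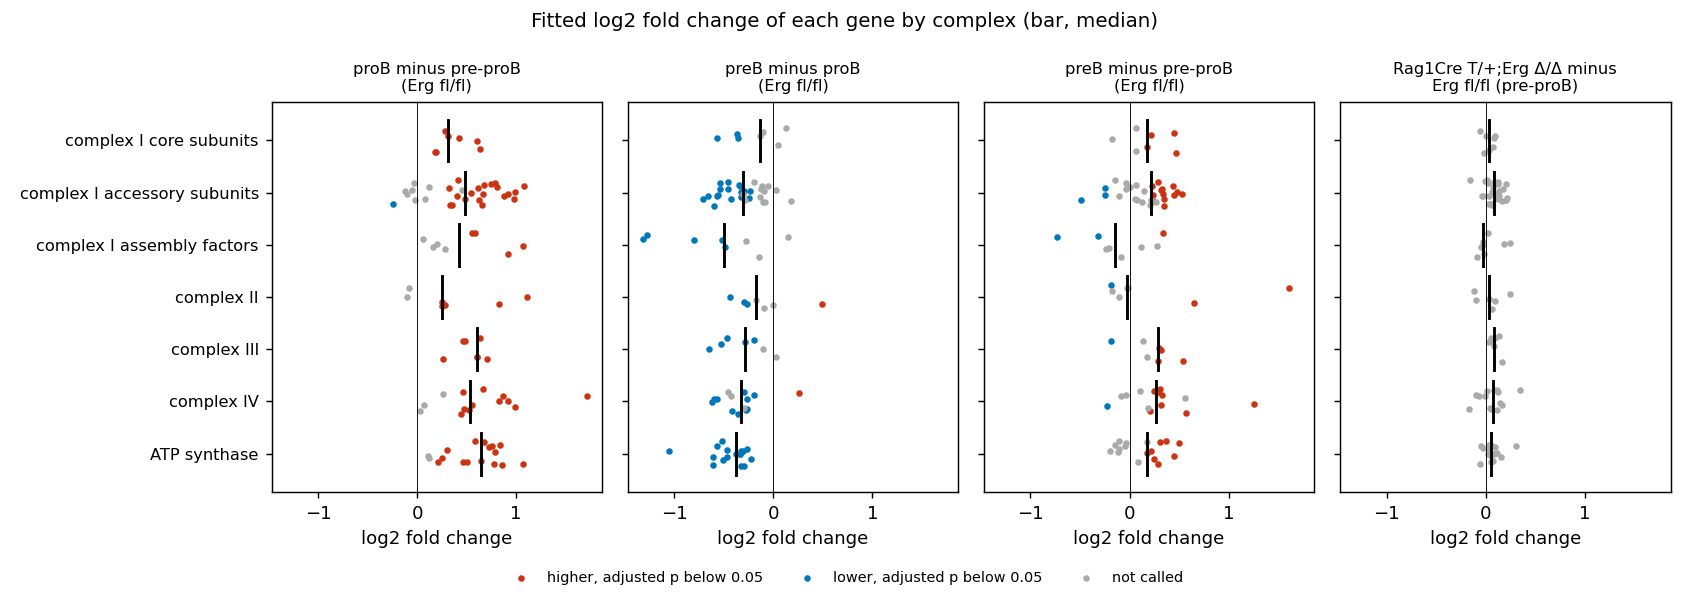
Each point is a gene, placed by its fitted log2 fold change (x axis) and its group (y axis) in the 4 comparisons; colours give the call and black bars the median of the group. The members lie mostly to the right in proB against pre-proB (69 higher, 1 lower), mostly to the left in preB against proB (2 higher, 60 lower), and close to 0 between the genotypes (0 called).

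The second comparison, of preB with proB cells, went the other way. Of the 89 members, 60 were lower and 2 were higher in preB cells, where 29.9% of all genes tested were called lower and 29.0% higher (58.9% in either direction). The median log2 fold change was -0.33, against -0.00 for all genes. All 17 ATP synthase genes fell, as did 10 of 14 complex IV genes, 5 of 7 complex III genes, 17 of 29 complex I accessory subunits, 5 of 8 complex I assembly factors and 3 of 7 genes each of the complex I core and complex II. The members called higher were Sdhaf2 and Cox7a2l. Because this comparison and the first share the proB libraries, their values are given side by side and not correlated.

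Ndufaf4 had the largest decrease, to 14.8 and 14.2 CPM in the preB libraries, below all other libraries. Its log2 fold change against proB was -1.32 (SE 0.0985, adjusted p = 1.63e-05). Ndufaf2, whose exons overlap another gene as given above, was at 4.19 and 4.73 CPM (-1.27, SE 0.170, adjusted p = 0.000316). Among subunits the largest decrease was that of Atp5g1, to 36.5 and 40.9 CPM (-1.05, SE 0.0874, adjusted p = 2.66e-05), below both pre-proB libraries. Atp5g2 fell to 56.7 and 65.0 CPM (-0.61, SE 0.0780, adjusted p = 0.000245) and Atp5g3 to 178 and 186 CPM (-0.57, SE 0.0581, adjusted p = 7.73e-05). Atp5g3 in preB cells was thus still above both pre-proB libraries, while Atp5g1 and Atp5g2 were below them, differences that were not called (adjusted p = 0.078 and 0.264). Atp5g1 was called lower than in pre-proB cells in 8 of 17 alternatives, with log2 fold changes from -0.31 to -0.11, and Atp5g2 in 1 of 17.

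The core subunits Ndufv2 and Ndufv1 fell by 0.57 and 0.36 on the log2 scale, Ndufv2 to 66.2 and 72.8 CPM (adjusted p = 0.000156). The accessory subunit Ndufs6 was at 28.0 and 27.7 CPM in preB libraries (-0.54, SE 0.0726, adjusted p = 0.000329), and Ndufa10 changed by -0.57 (SE 0.0770, adjusted p = 0.000342). In complex II, Sdhc had a log2 fold change of -0.44 (SE 0.0630, adjusted p = 0.000477), and Sdha and Sdhb of -0.27 and -0.30. In complex III, Uqcrb, a ubiquinone-binding subunit, was at 74.1 and 79.7 CPM in proB and 48.1 and 49.2 in preB libraries. Its log2 fold change was -0.65 (SE 0.0648, adjusted p = 6.47e-05), beside -0.53 for Uqcrq. In complex IV, Cox5a was at 94.2 and 99.7 CPM in preB libraries (-0.62, SE 0.0647, adjusted p = 8.41e-05) and Ndufa4 at 92.7 and 103 (-0.60, SE 0.0672, adjusted p = 0.000124). Cox4i1, which was not called in the first step, fell by 0.26 to 159 and 172 CPM (adjusted p = 0.00989), a call lost without preB replicate 1. Cox6a1, Cox6b1 and Cox8a had log2 fold changes of -0.36, -0.26 and -0.27, and the call of Cox8a was lost without proB replicate 1 or preB replicate 1.

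The 2 members that rose did so to different degrees. Sdhaf2 was at 151 and 156 CPM in preB libraries, above proB (log2 fold change 0.49, SE 0.0603, adjusted p = 0.000195) and above pre-proB by 1.61 (SE 0.0638, adjusted p = 9.52e-08), a 3.04-fold difference. Its levels therefore followed the order pre-proB, proB, preB without overlap, unlike the subunit it serves. Cox7a2l was at 204 and 219 CPM in preB libraries (0.26 against proB, SE 0.0664, adjusted p = 0.0101). That call was lost without proB replicate 2 or preB replicate 2, and 9.90% of the windows of Cox7a2l are shared with the gene Gm6969.

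**Figure D4:**
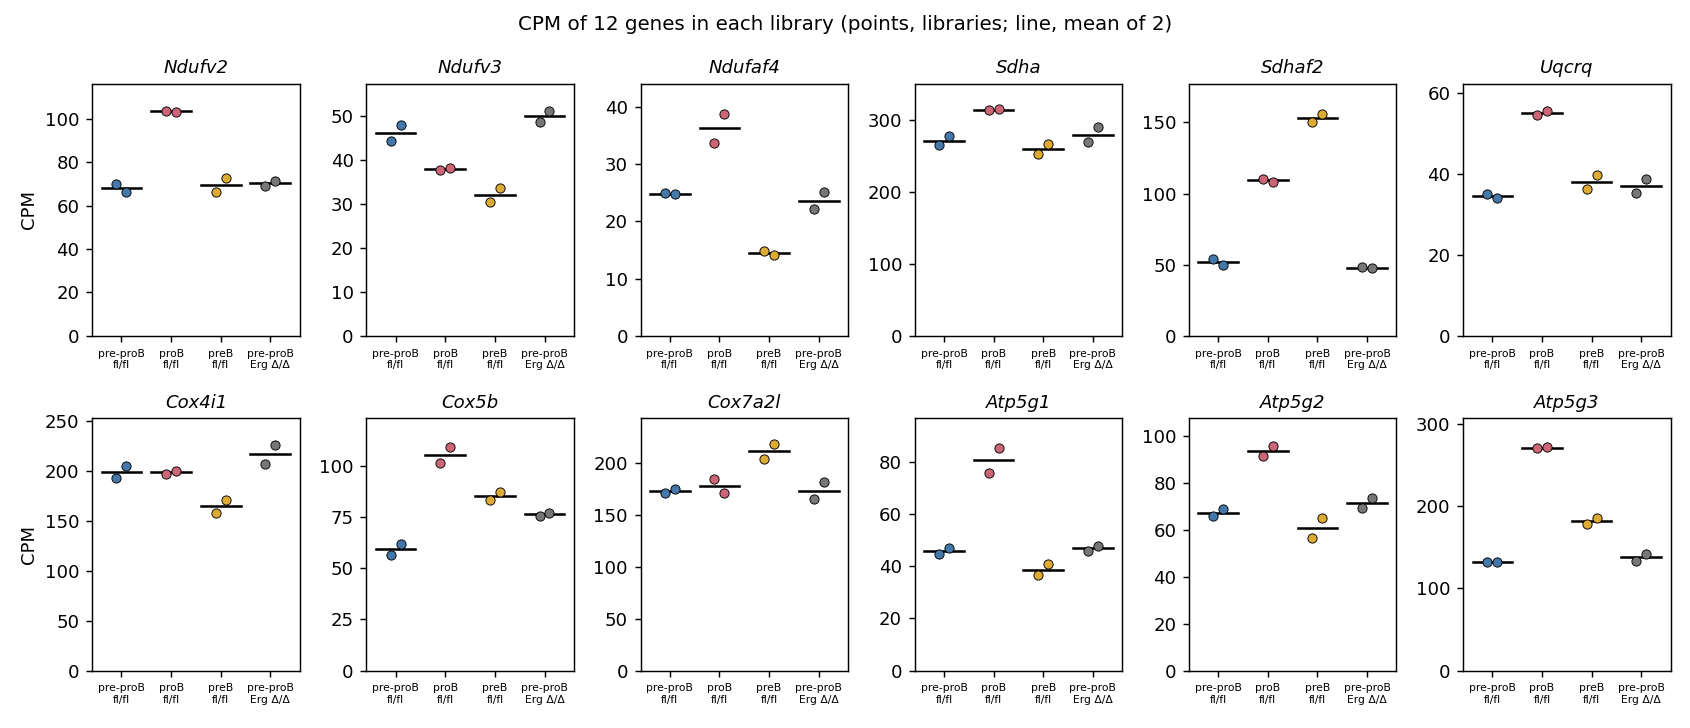
CPM (y axis, from 0) of 12 members in the 2 libraries of each group (points) with their mean (line). Most peak in proB cells; Sdhaf2 rises through preB cells to 151 and 156 CPM, Ndufv3 is lower at each step, Cox7a2l is highest in preB cells, and Cox5b is the member with the lowest p between genotypes.

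Over the 3 stages, 65 of the 89 members (73.0%) had both proB libraries above all 4 other Erg fl/fl libraries, where 24.0% of all genes tested did. These were 16 of 17 ATP synthase genes, 19 of 29 complex I accessory subunits, 10 of 14 complex IV genes, 6 of 8 complex I assembly factors, 5 of 7 complex I core subunits, 5 of 7 complex III genes and 4 of 7 complex II genes. Compared directly, preB cells were above pre-proB cells in 40 members and below in 8, where 36.5% of all genes tested were called higher and 34.1% lower (70.7% in either direction). The median log2 fold change was 0.18, against 0.04 for all genes. DESeq2 called 27 members higher and the libraries left out in turn gave 23 to 43 higher and 2 to 11 lower, with 23 higher without pre-proB replicate 1, 26 higher without preB replicate 2 and 2 lower without preB replicate 1.

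After Sdhaf2, the rises from pre-proB to preB with the lowest p were those of Atp5g3, Ndufs1 and Cox5b. Cox5b was at 56.6 and 62.0 CPM in the pre-proB libraries and at 83.3 and 87.3 CPM in the preB libraries (log2 fold change 0.57, SE 0.0738, adjusted p = 0.000148), with 8.09% of its windows shared with Gm11273. Atp5g3 differed by 0.50 (SE 0.0591, adjusted p = 7.45e-05), Ndufs1 by 0.47 (adjusted p = 0.000109), Atp5a1 by 0.45 (adjusted p = 0.0005) and Uqcrfs1, the Rieske iron-sulfur protein of complex III, by 0.54 (adjusted p = 0.000498). The core subunit Ndufs8 and the accessory subunits Ndufb8 and Ndufa11 were also higher, by 0.45, 0.45 and 0.44. Cox7a1 differed by 1.26 (adjusted p = 0.0111), which DESeq2 did not call. Ndufaf3 and Sdhaf3 were higher by 0.34 and 0.65, also not called by DESeq2. Cox7a1 was called in 14 of 17 alternatives, Ndufaf3 in 12 and Sdhaf3 in 13.

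The 8 members that ended lower included Ndufaf4 (-0.74, SE 0.101, adjusted p = 0.000204) and Ndufv3 (-0.49, SE 0.0831, adjusted p = 0.000775). Ndufv3 was at 30.3 and 33.6 CPM in preB libraries, below proB and pre-proB libraries without overlap. Ndufaf7, Ndufa13, Cox4i1, Uqcrb and Sdhc had smaller differences, from -0.32 to -0.19, and each of these calls was lost without preB replicate 1. The last was Ndufa1, a small membrane-arm subunit of complex I, at -0.25 (adjusted p = 0.0295), whose call was lost there too. Of 17 alternatives, Ndufaf7 was called in 14, Ndufa13 and Sdhc in 15, and Cox4i1 and Uqcrb in 16. For Ndufa13, 30.0% of the exon length overlaps Tssk6. Sdha and Sdhb, the catalytic pair of complex II, were not called, with 95% intervals from -0.17 to 0.13 and from -0.18 to 0.15.

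In the genotype comparison, of Erg-deficient with Erg fl/fl pre-proB cells, edgeR called 0 of 89 members, where 0.215% of 13005 genes tested were called higher and 0.946% lower (1.16% in either direction). At an unadjusted p below 0.05 there were 5 members (5.62%, against 12.5% of all genes), and DESeq2 and limma-voom also called 0. The median log2 fold change was 0.06, against 0.01 for all genes, and the members ranged from -0.17 to 0.35. Libraries of the genotypes did not overlap for 41 members (46.1%, against 44.7% of all genes). In 39 of these the Erg-deficient libraries were the higher ones, a share not counted over all genes. Log2 fold changes were above 0 for 69 members and below 0 for 20, against 6712 and 6293 of all genes. They were above and below 0 for 996 and 480 protein-coding genes with less than 1500 bases of exon, and for 81 and 3 cytosolic ribosomal protein genes. What underlies this direction was not tested. For 78 of the 89 members the 95% interval of the difference lay within 0.5 on either side of 0 on the log2 scale, and for 87 within 1. Cox7a1 and Cox7a2, with few counts, were the others. A p above the threshold does not show that the genotypes were alike, and these intervals give the sizes that the data leave possible.

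Cox5b, a peripheral complex IV subunit, had the lowest p, at 56.6 and 62.0 CPM in control libraries and 75.7 and 76.8 CPM in Erg-deficient ones. The groups did not overlap and the log2 fold change was 0.35 (SE 0.0675), but the adjusted p was 0.0758. A fit of all 8 libraries called it higher. Atp5d, the delta subunit of the ATP synthase stalk, was at 30.4 and 35.6 CPM in controls and 41.2 and 40.7 CPM in Erg-deficient libraries (0.30, SE 0.0860, adjusted p = 0.204). In the other groups the members with the lowest p were Ndufb9 (0.18, adjusted p = 0.369), Uqcrfs1 (0.16, adjusted p = 0.489), Ndufs3 (0.10, adjusted p = 0.597), Sdhaf2 (-0.12, adjusted p = 0.578) and Ndufaf2 (0.25, adjusted p = 0.644). None of these was called.

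Other subunits of the same complexes are encoded by mitochondrial DNA. Of these 13 genes, 10 were tested between stages. From pre-proB to proB 8 were higher, with a median log2 fold change of 0.28, and from proB to preB 0 were higher and 2 lower, with a median of -0.04. The core subunit mt-Nd1 was at 2172 and 2197 CPM at the pre-proB stage, 2990 and 3067 CPM at the proB stage and 2481 and 2588 CPM at the preB stage, so it too was highest in proB cells. The catalytic complex IV subunit mt-Co1 was at 8182 and 8497 CPM at the pre-proB stage, 8661 and 8709 CPM at the proB stage and 9982 and 9709 CPM at the preB stage. Its preB libraries were higher than the pre-proB libraries (log2 fold change 0.28, adjusted p = 0.00968) and above both proB libraries, a difference that was not called (adjusted p = 0.0619). Also higher in preB than in pre-proB cells was mt-Nd6 (0.35, adjusted p = 0.00174). The table listed mt-Co2, mt-Atp6, mt-Atp8 and mt-Nd4l below 1 CPM in every library and mt-Co3 at 0.192 to 0.507 CPM except in the proB libraries, at 11.5 and 1.08, so the calls of mt-Co3 and mt-Nd4l rest on few counts. Between genotypes 0 of 8 tested were called.

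Other genes of mitochondrial energy metabolism were counted as lists. Of 17 genes of the citric acid cycle and pyruvate dehydrogenase, 15 were higher and 1 lower in proB than in pre-proB cells, and 1 was higher and 8 lower in preB than in proB cells. Mdh2, malate dehydrogenase, differed by 0.97 and -0.54 in these steps. Of 7 mitochondrial carriers and porins tested, 6 rose in the first step and 6 fell in the second. They include Slc25a5, the adenine nucleotide carrier that exports ATP, at 316 and 323 CPM at the pre-proB stage, 695 and 699 CPM at the proB stage and 384 and 423 CPM at the preB stage, and Ucp2, an uncoupling protein family member, with log2 fold changes of 1.25 and -0.42. Of 18 genes of ubiquinone synthesis, cytochrome c and electron transfer, 11 rose and 7 fell in the first step, and 4 rose and 8 fell in the second. Coq7, a ubiquinone synthesis enzyme, rose in both steps, by 2.53 and 0.93. Of 34 assembly factors outside the rule, 16 rose and 7 fell in the first step, and 2 rose and 12 fell in the second. Lrpprc, which stabilises mitochondrial mRNA, differed by 1.04 and -0.63. Between genotypes 0 genes of these 4 lists were called.

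Regulators of respiratory genes gave a mixed pattern. Of 17 tested, 14 were higher and 1 was lower in proB than in pre-proB cells, and 3 were higher and 5 lower in preB than in proB cells. Nrf1 was at 60.4 and 62.0 CPM at the pre-proB stage, 96.5 and 96.6 CPM at the proB stage and 100.3 and 102 CPM at the preB stage, so it rose in the first step (log2 fold change 0.69, adjusted p = 6.66e-06) and was not called in the second (0.08, 95% interval -0.05 to 0.20). Gabpa, the ETS subunit of GABP, rose by 0.37 (adjusted p = 0.000388) and had an interval of -0.16 to 0.10 in the second step. Gabpb1, Gabpb2, Tfam, Polg, Polrmt, Yy1, Tfb1m, Tfb2m, Twnk and Esrrb were also called higher in the first step, but Tfb2m and Twnk were called in only 9 of 17 alternatives each, Esrrb in 14 and Yy1 in 16. Pprc1, a coactivator, rose by 0.94 and then fell by 1.21 on the log2 scale (adjusted p = 5.71e-06). Myc was at 20.5 and 14.4 CPM at the pre-proB stage, 168 and 175 CPM at the proB stage and 20.1 and 23.6 CPM at the preB stage, with log2 fold changes of 3.34 and -2.97. In the second step Tfb1m, Twnk and Ppargc1b also fell, and Esrra, Polg and Gabpb2 rose, with Twnk called in 11 of 17 alternatives and Gabpb2 in 15. Esrra, an orphan receptor that regulates mitochondrial genes, had fallen in the first step (-0.39, adjusted p = 0.00554). Between genotypes Myc was called, at 6.25 and 5.81 CPM in Erg-deficient libraries (-1.55, adjusted p = 0.0293), while none of the 89 members was. That call was lost in limma-voom and without either Erg-deficient library.

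Members whose promoter held the NRF1 motif had a median log2 fold change of 0.55 from pre-proB to proB (20 tested) and those with a promoter entry but no match 0.55 (56 tested). From proB to preB the medians were -0.33 and -0.32. With the ETS motif the medians were 0.51 and 0.56 in the first step and -0.28 and -0.34 in the second, and with YY1 0.55 and 0.55, and -0.33 and -0.31.

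Several measures moved with the stages beside the members, and their part in the results was not tested. All 20 proliferation genes were higher in proB than in pre-proB cells, with a median log2 fold change of 2.02, and all 20 were lower in preB than in proB cells, with a median of -0.65. Summed, they came to 2455 and 2689 CPM at the pre-proB stage, 10850 and 10620 CPM at the proB stage and 7443 and 6510 CPM at the preB stage. Of 77 mitochondrial ribosomal protein genes 68 rose and 2 fell in the first step, and of 84 cytosolic ribosomal protein genes 63 rose and 3 fell. In the second step 50 and 66 of them fell, with medians of -0.34 and -0.37. Protein-coding genes with less than 1500 bases of exon, which describes 62 of the members tested, had median log2 fold changes of 0.21 and -0.19 in the 2 steps. Those 62 members had medians of 0.47 and -0.33. Of the 71 members tested that had at most 10% of exon overlap and of shared windows, 55 rose and 1 fell in the first step and 2 rose and 49 fell in the second.

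Plasmacytoid dendritic-like, NK-like and T-like markers were present mainly in the pre-proB gate, although NK1.1+ and CD11c+ cells were left out of it. All 8 plasmacytoid dendritic-like markers and 7 of 8 NK-like markers were lower in proB than in pre-proB cells, as were 7 of 8 T-like markers. The summed level of the NK-like list was 216 and 224 CPM in control pre-proB libraries and 287 and 415 CPM in Erg-deficient ones, where 5 of its 8 genes were called higher. The T-like list summed to 645 and 811 CPM in controls and 1468 and 823 CPM in Erg-deficient pre-proB libraries, and to 30.2 to 93.9 CPM in proB and preB libraries. The myeloid-like list summed to 59.7 to 365 CPM over the Erg fl/fl libraries, highest in proB replicate 2, and the erythroid-like list to 3.02 to 33.8 CPM. Plasma cell-like genes summed to 677 to 1213 CPM and mature B-like genes to 559 to 2193 CPM over the 8 libraries. No gene of these lists was at 0 in all libraries of a group. The part of these markers in the levels of the respiratory genes was not tested.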

How the data were processed

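RNA-seq of 8 libraries was analysed from 1 table of counts that the authors deposited: whole-number read counts per Entrez Gene identifier, without normalization. Per the study's methods and processing notes, 100-base reads were called with CASAVA 1.8.2, trimmed with Trim Galore, aligned to mm10 with STAR and counted with featureCounts and its built-in Entrez annotation. How strand and multi-mapping reads were handled is not stated in the methods read here, and reads of overlapping or near-identical genes may be shared. Symbols came from RefSeq for 25275 identifiers and from GENCODE for 18, and 1886 had none (0.571% of counts). Exon lengths, overlaps and shared 100-base windows were computed from GENCODE M21.

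Counts were tested with edgeR 4.0.16 in R 4.3.3 (TMM, legacy glmQLFit and glmQLFTest) with 1 model for the 6 control libraries (13650 genes, 3 residual degrees of freedom) and 1 for the 4 pre-proB libraries (13005 genes, 2 residual degrees of freedom), keeping genes that reached 0.5 CPM in 2 or more libraries. Two-sided p-values received Benjamini-Hochberg adjustment across every gene in a fit and were called below 0.05. They set each difference against a spread between libraries that is partly estimated from all genes of the fit (prior degrees of freedom 5.36 and 4.72). The SE was taken as the log2 fold change over the root of F. With 2 against 2 libraries no exact permutation test could reach that threshold. Replicates of a group differed by more than counting noise (chi-square per degree of freedom 3.90 to 8.44). Floors in CPM cover counting error only.

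Genes were named by a rule: per comparison and group, the called members with the 2 lowest p in each direction or, with none called, the lowest p, plus complex II subunits, alternative forms of complex IV subunits, the subunit c genes, the called gene with the lowest p of each list, and the called regulators. Some genes the rule names are given only within counts. Uqcrh, Ndufa1, Atp5b, Atp5c1, Atp5e, Slc25a5 and mt-Co1 are described outside it and were chosen after their values were seen. Erg and Cox6a2 are described outside it too. The members, lists, motifs and rule were chosen with earlier results of these data known. Alternatives were DESeq2 1.42.0 and its size factors, limma-voom (limma 3.58.1), total counts, immunoglobulin genes left out, no filter or at least 1 CPM, edgeR's version 4 and robust methods, 1 fit of 8 libraries, a replicate block, and each library left out. The code was tested on simulated data. Other experiments of the study were not analysed here.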

Additional observations from a re-analysis of the deposited data

How the results depend on the processing

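Direction was the same under every alternative for the median of the members in all 4 comparisons. Members called higher in proB than in pre-proB cells numbered 65 to 72 over the alternatives with all libraries, and those called lower in preB than in proB cells 57 to 63. Total counts moved the medians of these steps to 0.57 and -0.39 and left 0 members called lower in the first. The fit of all 8 libraries called 1 member higher between genotypes. With each library left out in turn, members called higher and lower were 60 to 69 and 0 to 1 for proB against pre-proB, 1 to 2 and 47 to 64 for preB against proB, 23 to 43 and 2 to 11 for preB against pre-proB, and 0 and 0 between genotypes. The medians were 0.43 to 0.53, -0.42 to -0.27, 0.078 to 0.25 and 0.0092 to 0.11 in that order. The lone library of a group is then assumed to vary like the other groups.

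Log2 fold changes of named members that changed sign were called only in 1 case, Atp5g2 in preB against pre-proB cells without preB replicate 2, where it was lower. In the fit of all 8 libraries, Cox4i1 came to -0.0033 (proB against pre-proB). With 1 library left out, the range was -0.0636 to 0.0585 for Cox4i1 (proB against pre-proB). In the fit with immunoglobulin genes left out, Sdha came to 0.0025 and Sdhb came to 0.0116 (preB against pre-proB). With 1 library left out, the range was -0.3652 to 0.2207 for Cox7a2, -0.1187 to 0.0287 for Sdha, -0.1305 to 0.0703 for Sdhb, -0.2352 to 0.0015 for Atp5g2 (preB against pre-proB). In the fit with total counts, Cox6b1 came to -0.0255 and Atp5g1 came to -0.0097 and Sdhc came to -0.0058 and Sdha came to -0.0046 (between genotypes). In the fit of all 8 libraries, Cox7a2l came to 0.0011 (between genotypes). With 1 library left out, the range was -0.0655 to 0.0808 for Cox6b1, -0.006 to 0.0552 for Atp5g1, -0.235 to 0.4892 for Cox7a1, -0.4957 to 0.2154 for Cox7a2, -0.0194 to 0.1265 for Ndufa4, -0.0819 to 0.0571 for Cox7a2l, -0.212 to 0.0661 for Cox6b2, -0.0537 to 0.1072 for Sdhc, -0.0245 to 0.0827 for Sdha (between genotypes).

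Same-numbered replicates deviated together with correlations of -0.035 to 0.150 between groups, so the numbers were not taken to pair the libraries. With a replicate block, members called higher and lower were 69 and 1, 2 and 61, 42 and 10, and 0 and 0 in the 4 comparisons, with medians of 0.51, -0.33, 0.18 and 0.06. Depth limits Cox7a1, Cox7a2 and Cox6b2, which have few counts.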
